A study of Mus musculus with 18 samples.

Results

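The comparison set 3 obstructed wild-type mouse kidneys against 3 sham-operated wild-type kidneys. These were 6 of the 18 arrays of the series, chosen by genotype and operation alone, and every probe set other than the array's own controls was examined. All mice carried the WT genotype on the C57BL/6 strain. In the UUO group (unilateral ureteral obstruction) the right ureter was ligated close to the kidney, with its nerves and vessels left intact. Sham mice had that surgery with no tie on the ureter. Kidneys of the operated side were collected 3 days later and frozen, and total RNA was hybridised to Affymetrix Mouse430A_2 arrays. The labels call the samples biological replicates, and an array is named here by group and label number, such as WT UUO 2. The other 12 arrays came from TIMP2-/- and TIMP3-/- kidneys with either operation, on the same strain. They entered the estimate of each probe set's spread and a closing comparison of responses.

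Ureteral obstruction is a standard surgical model of tubular injury and interstitial fibrosis, used because the injury does not depend on a toxin or on diet. Urine pressure stretches the tubules, whose epithelium then loses transport and mitochondrial functions, leaves its resting state and releases chemokines. Monocytes enter the interstitium, and pericytes and fibroblasts turn into contractile, matrix-producing cells. In bulk tissue RNA, fewer cells of a type and less RNA per cell cannot be told apart.

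Values are linear intensities per probe set, and a difference is a log2 fold change, WT UUO minus WT sham, with its standard error (SE) and an adjusted p from limma. A gene is described by its brightest probe set and was called when the adjusted p was under 0.05. Values of 3 arrays are given in the order 1, 2, 3. A level is termed dim where its group mean lay under 60.4, the 25th percentile of all values, since a fold against a dim level is compressed by background. An exact permutation test of 3 arrays against 3 cannot go below p = 0.1, so the calls rest on the spread pooled over all groups.

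The arrays of each group did not stand at equal distances. The first principal component of the WT arrays, with 71.0% of their variance, ran from -61.9 to -49.5 in the sham arrays and placed WT UUO 3 at 23.6, WT UUO 1 at 48.7 and WT UUO 2 at 90.7. The second, with 15.8%, set WT sham 3 apart at 42.9. WT UUO 2 carried hepatocyte transcripts. Alb, serum albumin, had intensities of 72.7, 28106 and 254 on the UUO arrays and 516, 481 and 277 on the sham arrays. Of 28 measured hepatocyte markers, 27 were highest on WT UUO 2 and 22 were over 4-fold above both other UUO arrays. Their summed intensity was 11077 and 23418 on WT UUO 1 and WT UUO 3, 167622 on WT UUO 2 and between 16800 and 19765 on the sham arrays. Over all genes, 132 were over 4-fold higher on WT UUO 2 than on both other UUO arrays, of which 32 were called, and each other WT array had between 0 and 4 such genes within its group.

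Over all called genes, hepatocyte genes included, WT UUO 2 was the highest of the UUO arrays for 64.7% of the genes that rose and the lowest for 76.3% of the genes that fell. WT UUO 3 was the lowest for 65.8% of the risen genes and the highest for 78.8% of the fallen ones. Median changes from the sham mean over the risen genes were 1.01, 1.19 and 0.84 on WT UUO 1 to 3, and over the fallen genes -0.68, -0.89 and -0.47. Each result was therefore computed again without WT UUO 2. Unless a sentence says otherwise, a gene said to have risen or fallen was called in the same direction in that second fit too.

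**Figure D1:**
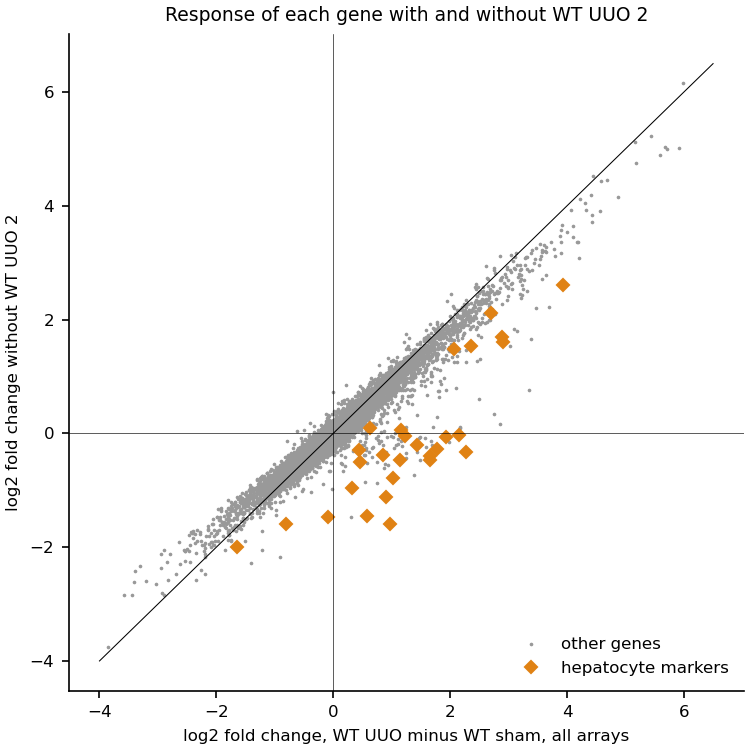
Each point is 1 of 12393 genes, with its log2 fold change over all arrays on the x axis and without WT UUO 2 on the y axis. Orange diamonds are the 28 hepatocyte markers and the line marks equal values. Most genes lie near the line with a somewhat smaller change without WT UUO 2, and hepatocyte markers such as Alb drop from above 0 to below 0.

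Obstruction changed the level of 4038 of 12393 genes, 32.6%, in limma at an adjusted p under 0.05. Of these, 2059 rose (16.6%) and 1979 fell (16%). Without WT UUO 2 the calls numbered 2646 (21.4%), with 1616 higher (13%) and 1030 lower (8.31%). That fit kept 1581 of the rises and 997 of the falls and turned no call around, and it added 68 genes. Rises were the larger changes, with a median of 1.02 against -0.68 for falls, and 1061 genes (8.56%) rose by over 2-fold while 523 (4.22%) fell by as much. The median over all genes was -0.09. The split depends on the centring: with each array centred on its median, the all-gene median went to -0.22 and the calls were 1679 higher and 2928 lower. The arrays of the groups did not overlap for 5977 genes (48.2%). Falls were most frequent among genes with a high sham level. Among the 3099 genes with a mean sham intensity of 954.6 or more, 28.2% fell and 14.4% rose. Among the 3098 genes between 87.3 and 318, 22.8% rose and 12.5% fell.

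The 12 largest rises and 12 largest falls were picked among genes whose groups did not overlap, so the separation of their arrays is part of the choice. Havcr1, the kidney injury molecule of the damaged proximal tubule, stood at 6175, 8439 and 4698 after obstruction and at 139, 149.6 and 143 after sham, a log2 fold change of 5.44 ± 0.21 (limma, adjusted p = 4.30e-10). Serpina10, a plasma inhibitor of coagulation factor X, stood at 4263, 3800 and 2961 against 102, 145 and 71.5 (5.16 ± 0.27, adjusted p = 1.45e-08). Aldh1a2, which makes retinoic acid, stood at 1983, 2700 and 1910 against 109.5, 113 and 58.9 (4.59 ± 0.23, adjusted p = 1.45e-08). In these genes the obstructed arrays were within 2-fold of each other.

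Other large rises varied more between the obstructed kidneys. Mfap5, a microfibril protein, stood at 1118, 4226 and 767 against dim sham levels of 45.7, 55.7 and 55.7 (4.88 ± 0.69, and 4.15 without WT UUO 2). Serpinf1, the secreted pigment epithelium-derived factor, stood at 1791, 6020 and 1402 against 100.3, 129.5 and 88.9 (4.56 ± 0.64, and 3.92 without WT UUO 2). Sprr2f, a cornified envelope protein also made by urothelium, stood at 1662, 4863 and 763 against 17.8, 57.4 and 42.6 (5.70 ± 0.54, adjusted p = 2.72e-06). For each of these WT UUO 2 was over 2-fold above both other obstructed arrays.

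The 12 largest falls were mostly transporters, steroid and drug enzymes and distal tubule proteins. Pvalb, the calcium-binding parvalbumin of the early distal convoluted tubule, stood at 95.2, 76.7 and 97.9 after obstruction and at 1571, 1185 and 1179 after sham (-3.86 ± 0.28, adjusted p = 1.95e-07). Slc22a7, an organic anion transporter, stood at 502, 233 and 2370 against 7289, 8684 and 7608 (-3.59 ± 0.58, adjusted p = 0.000297). Hsd3b2, an enzyme of steroid synthesis, stood at 274, 57.5 and 705 against 2184, 1960 and 2550 (-3.31 ± 0.59, adjusted p = 0.000685). The obstructed arrays were within 2-fold of each other for Pvalb, while Slc22a7 and Hsd3b2 were lowest on WT UUO 2 and highest on WT UUO 3. Slco1a1 and Akr1c14, an anion transporter and a steroid reductase, had unequal sham arrays. Akr1c14 stood at 713, 770.5 and 3128 after sham and at 104, 147 and 269.5 after obstruction.

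**Figure D2:**
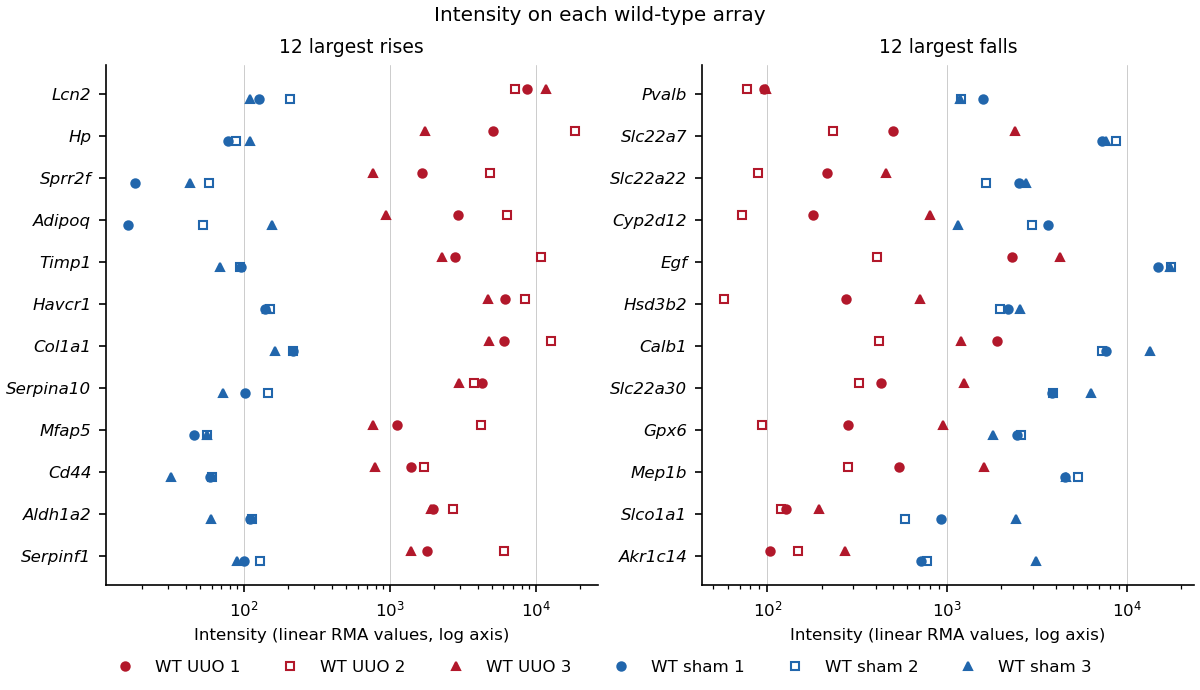
Intensity (log axis) of the 12 largest rises, left, and the 12 largest falls, right, on each WT array, with UUO arrays in red, sham arrays in blue and array 2 of each group as open squares. Genes were picked for groups that do not overlap, and the spread among the red marks differs between genes, from within 2-fold for Havcr1 to over 10-fold between WT UUO 2 and WT UUO 3 for Slc22a7.

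Gene lists for kidney segments, pathways and cell types described the rest. They numbered 59 and named 1517 genes, of which 1344 had a probe set of their own on the array. Counts of members that rose or fell are to be read against the 16.6% and 16% of all genes above, and medians against -0.09.

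**Figure D3:**
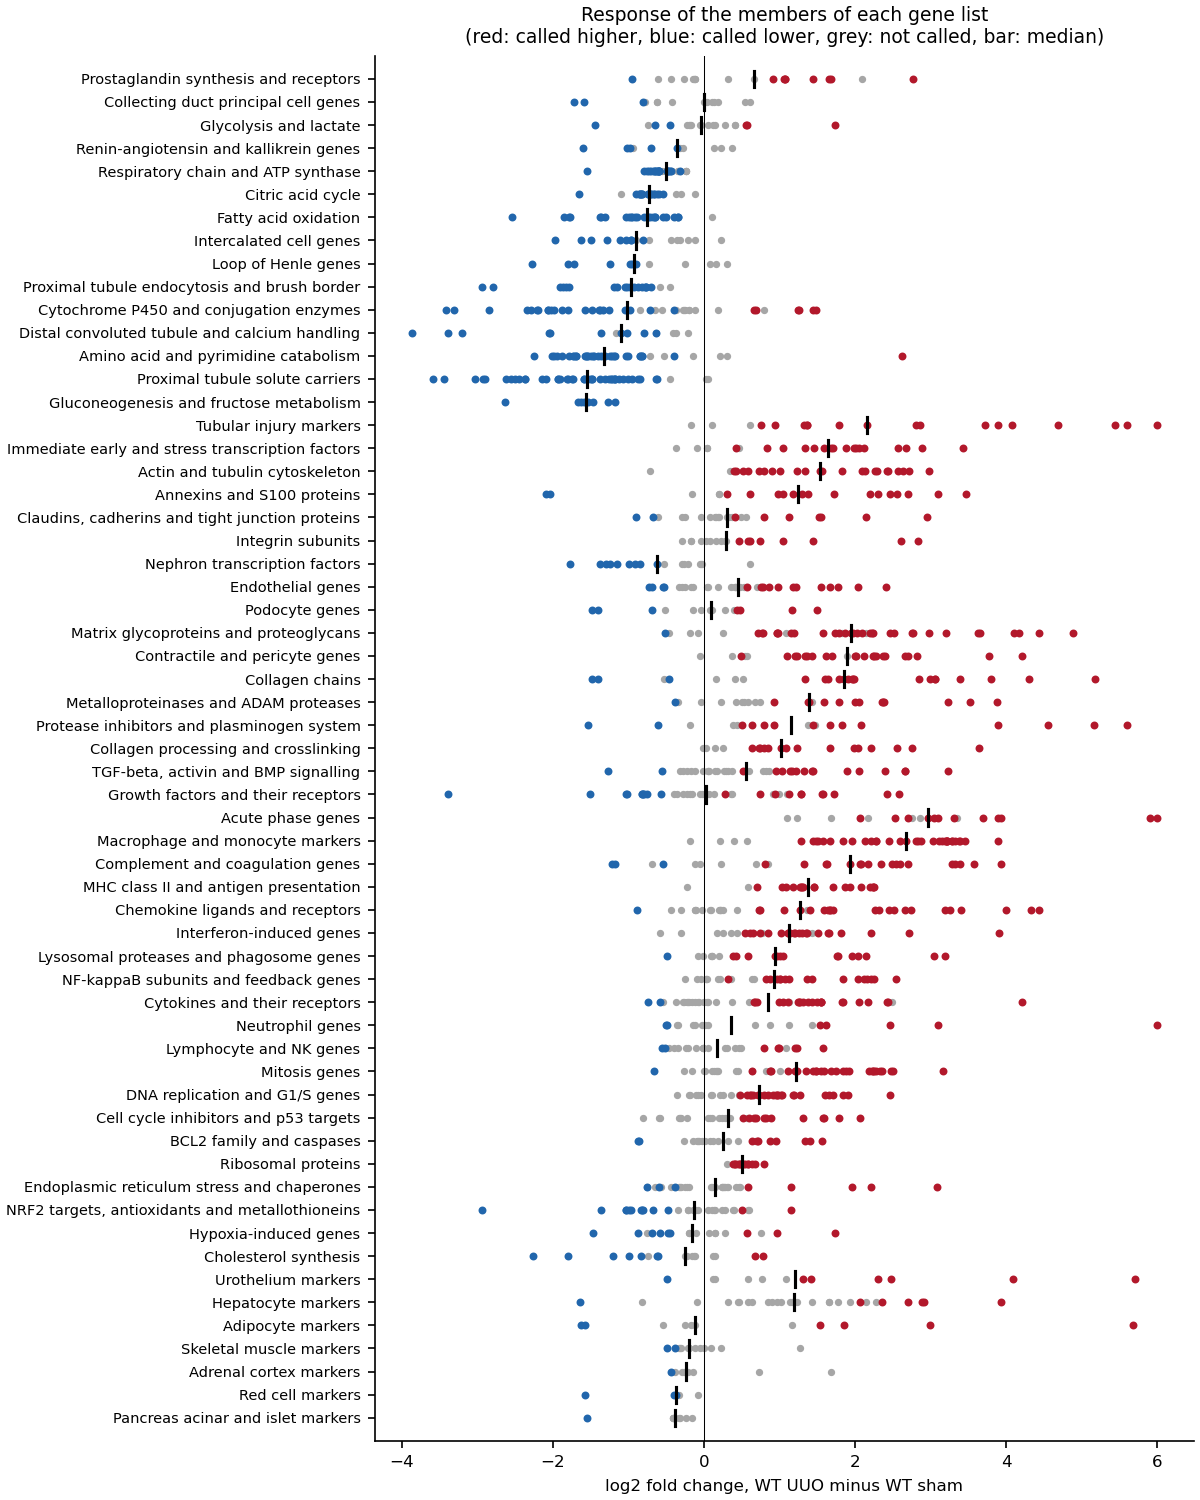
Each dot is a measured member of 1 of the 59 gene lists, placed by its log2 fold change, with called rises in red, called falls in blue and other members in grey. Black bars are list medians over all arrays, which run from -1.57 for gluconeogenesis and fructose metabolism to 2.97 for acute phase genes. Without WT UUO 2 the acute phase median was 2.11, below the 2.35 of macrophage and monocyte markers.

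Injured tubules re-express genes of a flattened, motile epithelium. Of 19 tubular injury markers 16 rose and none fell, with a median of 2.15, and the same 16 were called without WT UUO 2. Cd44, the hyaluronan receptor of damaged and regenerating tubules, stood at 1389, 1710 and 785 against dim sham levels of 58.0, 60.1 and 31.5 (4.68 ± 0.31, adjusted p = 1.23e-07). Lcn2, the iron-binding protein NGAL, was highest on WT UUO 3, with 8735, 7198 and 11825 against 127, 206 and 111 (5.99 ± 0.34), and Timp1, an inhibitor of metalloproteinases that injured tubules also make, was highest on WT UUO 2, with 2796, 10929 and 2287 against 94.9, 94.5 and 68.5 (5.60 ± 0.52). Their groups did not overlap on any array.

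The cytoskeleton moved with the injury markers. Of 25 actin and tubulin genes 23 rose and none fell (median 1.54; 21 without WT UUO 2). Capg, which caps actin filaments, stood at 3150, 3797 and 3753 against 420.1, 678 and 321 (2.98 ± 0.27, adjusted p = 1.81e-06). Tubb6, a beta tubulin, rose by 2.71 ± 0.38, and Coro1a, a coronin of leukocytes, by 2.64 ± 0.28. Tmsb10, an actin-monomer binding peptide, rose by 2.57 ± 0.17 on its brightest probe set, but with the suffixed probe sets, which can match several transcripts, left out, the remaining one gave -0.29 and was not called (adjusted p = 0.204). The other suffixed probe sets gave 3.19, 3.36 and 0.48, the last not called. Among 20 annexins and S100 proteins 15 rose and 2 fell (12 and 2 without WT UUO 2). S100a6, a calcium-binding protein of proliferating cells, stood at 8223, 12389 and 7525 against 749, 1316 and 572 (3.47 ± 0.31, adjusted p = 1.69e-06), and Anxa3 rose by 2.56 ± 0.25. The 2 that fell are epithelial genes. S100g, the calbindin that ferries calcium through distal tubule cells, stood at 5201, 1729 and 2326 against 12830, 9591 and 11736 (-2.04 ± 0.34), and Anxa13, an annexin of polarised epithelium, fell to a dim level (-2.09 ± 0.23).

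Junction proteins moved in both directions. Of 23 claudins, cadherins and tight junction proteins 7 rose and 2 fell (6 and 2 without WT UUO 2, of which 5 and 2 were shared). Cldn4, a claudin of distal nephron and collecting duct, stood at 3445, 3179 and 3108 against 752, 928 and 557 (2.15 ± 0.28, adjusted p = 4.70e-05), and Cldn7 rose by 1.55 ± 0.24. Cdh11, the cadherin of mesenchymal cells, stood at 1768, 2240 and 1252 against 221, 242 and 201 (2.95 ± 0.35, adjusted p = 1.84e-05). Cldn2, the cation-pore claudin of the proximal tubule, stood at 6587, 5145 and 5702 against 8812, 9181 and 9610 (-0.67 ± 0.15, adjusted p = 0.00292), and Cldn10 fell by 0.90 ± 0.23 (adjusted p = 0.00794, and 0.0498 without WT UUO 2). Cldn1 rose by 1.52 ± 0.46 but was not called without WT UUO 2 (adjusted p = 0.0719). Of 19 integrin subunits 8 rose and none fell (6 without WT UUO 2). The largest were the leukocyte chains Itgam (2.84 ± 0.31, sham level dim) and Itgb2 (2.61 ± 0.28), followed by Itgax (1.44 ± 0.18) and the more widely expressed Itgb5 (1.05 ± 0.16).

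Transcription factors were listed by stress response and by nephron identity. Of 22 immediate early and stress factors 17 rose and none fell (median 1.64; 15 without WT UUO 2). Egr1, a zinc finger factor induced by growth factors and stretch, stood at 3024, 3390 and 1571 against 631, 472 and 209 (2.67 ± 0.35, adjusted p = 5.35e-05). Fos, a subunit of AP-1, stood at 673, 1926 and 426 against 133, 106 and 96.3 (2.89 ± 0.45), Egr2 rose by 3.43 ± 0.34 from a dim level, and Cebpd, an inflammatory C/EBP factor, rose by 2.56 ± 0.32. The other Cebpd probe set gave 0.12 and was not called. For Egr1 and Fos every obstructed array, 3 days after surgery, exceeded every sham array.

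Among 17 nephron transcription factors 9 fell and none rose, but 3 of the falls were called without WT UUO 2, and that fit called 1 member higher. Ppara, the receptor that drives fatty acid oxidation genes, stood at 761, 525 and 1015 against 2551, 2812 and 2231 (-1.77 ± 0.24, adjusted p = 7.68e-05) and kept its call. Ppargc1a, the coactivator of mitochondrial biogenesis, stood at 421, 238 and 415 against 496, 1066 and 1379 (-1.38 ± 0.46, adjusted p = 0.033), and without WT UUO 2 its adjusted p was 0.139. Esrrb, an orphan nuclear receptor, and Irx1, a patterning factor, likewise lost their calls, with adjusted p of 0.162 and 0.103 in that fit.

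The proximal tubule, which reclaims most of the filtrate, had falls in most of its carriers. Of 44 proximal tubule solute carriers 41 fell and none rose, with a median of -1.55, and 37 of the falls were called without WT UUO 2 (median -1.17). Slc5a2, the SGLT2 glucose transporter, stood at 3140, 1646 and 5079 against 10136, 10848 and 9134 (-1.75 ± 0.33, adjusted p = 0.000969). Slc34a1, the main phosphate transporter, stood at 5924, 3717 and 10717 against 17233, 18390 and 19981 (-1.58 ± 0.32). Slc22a6, the organic anion transporter OAT1, stood at 1346, 663 and 3869 against 8007, 7807 and 7561 (-2.37 ± 0.44). The order of the obstructed arrays was the same for these 3 genes, lowest on WT UUO 2 and highest on WT UUO 3, and all lay below every sham array. Slc22a30 and Slc22a22, further organic ion carriers, had log2 fold changes of -3.03 ± 0.35 and -3.44 ± 0.46.

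Receptors and brush border enzymes followed the carriers. Of 23 measured genes of endocytosis and the brush border 19 fell and none rose (14 without WT UUO 2; medians -0.96 and -0.86). Lrp2, the endocytic receptor megalin, stood at 2858, 1526 and 3493 against 8432, 9082 and 10416 (-1.90 ± 0.25, adjusted p = 5.10e-05). Its partner Cubn, cubilin, stood at 2199, 1384 and 3126 against 6996, 8409 and 7766 (-1.86 ± 0.25, adjusted p = 6.79e-05). Dnase1, a secreted nuclease, stood at 3003, 1223 and 7982 against 23016, 22258 and 18814 (-2.79 ± 0.50), and Mep1b, a subunit of the brush border protease meprin, fell by 2.94 ± 0.44. Each of the 3 was lowest on WT UUO 2 and highest on WT UUO 3 among the obstructed kidneys, and below every sham array.

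Many enzymes of the proximal tubule had falls too. Among 42 cytochrome P450 and conjugation enzymes 23 fell and 6 rose (21 and 5 without WT UUO 2, of which 20 and 5 were shared). Cyp2d12, a P450, fell by 3.41 ± 0.66, and Ces1e, a carboxylesterase, fell by 2.85 ± 0.51. The rises included Cyp1b1, a P450 of mesenchymal and vascular cells (1.48 ± 0.35), and Cyp4v3, a fatty acid hydroxylase (1.44 ± 0.19). In amino acid and pyrimidine catabolism 32 of 39 genes fell and 1 rose, with a median of -1.33 (30 lower and 1 higher without WT UUO 2, of which 28 and 1 were shared). Gatm, which makes the creatine precursor guanidinoacetate, stood at 1368, 728 and 1340 against 4184, 4407 and 7822 (-2.25 ± 0.33, adjusted p = 0.000141), and Gldc, of the glycine cleavage system, fell by 2.01 ± 0.24. The gene that rose was Arg2, the mitochondrial arginase, at 1560, 1356 and 1840 against 287, 319 and 182 (2.62 ± 0.28, adjusted p = 6.86e-06).

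Glucose production and glucose breakdown did not move alike. All 8 measured genes of gluconeogenesis and fructose metabolism fell, with and without WT UUO 2. G6pc, which releases free glucose, stood at 1274, 433 and 2936 against 7305, 6853 and 7765 (-2.64 ± 0.50, adjusted p = 0.00118), and Pck1, the PEP carboxykinase, stood at 2692, 2050 and 4088 against 7037, 8357 and 11450 (-1.63 ± 0.24). Of 19 genes of glycolysis and lactate handling 3 rose and 3 fell (2 and 1 without WT UUO 2, where none of the 3 falls was kept), and the median was -0.04. Hk2, the inducible hexokinase, stood at 301, 410.1 and 172 against 70.0, 87.7 and 94.3 (1.73 ± 0.28, adjusted p = 0.000282), and Pfkp, a phosphofructokinase, rose by 0.56 ± 0.12 on its brightest probe set. The other Pfkp probe set gave -0.06 and was not called. Pdk2, a brake on pyruvate dehydrogenase, had a change of -1.44 ± 0.38 that was not called without WT UUO 2 (adjusted p = 0.0573). Hk2 was the only rise of this list over 2-fold.

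Mitochondrial genes gave falls and no rise. Of 30 genes of fatty acid oxidation 26 fell (16 without WT UUO 2), of 22 citric acid cycle genes 18 fell (13) and of 32 respiratory chain and ATP synthase genes 20 fell (9), and none rose. Their medians were -0.76, -0.73 and -0.50. Acsm3, a medium-chain acyl-CoA ligase, fell by 2.54 ± 0.42, and its relative Acsm1 fell by 1.86 ± 0.28. Ehhadh, a peroxisomal enzyme of beta-oxidation, stood at 3366, 1783 and 6302 against 11564, 11143 and 12009 (-1.78 ± 0.30, adjusted p = 0.000378). Ndufs1, the largest subunit of complex I, stood at 1114, 1150 and 1532 against 3259, 3379 and 4412 (-1.54 ± 0.21, adjusted p = 7.16e-05) and was the largest fall of its list. Dlat, of the pyruvate dehydrogenase complex, fell by 0.89 ± 0.12. On brightest probe sets the respiratory chain falls other than Ndufs1 were below 2-fold, and 9 of the 20 falls of this list were called without WT UUO 2. Another probe set of Cycs, a member of this list, gave -1.34 ± 0.30 over all arrays and was called. With each array centred on its median, 29 of the 32 were called lower.

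Further along the nephron the loss was uneven. In the loop of Henle list 7 of 12 genes fell (6 without WT UUO 2). Slc12a1, the furosemide-sensitive salt transporter, stood at 2246, 1092 and 4185 against 7387, 12938 and 12130 (-2.27 ± 0.51, adjusted p = 0.00379), and the potassium channel Kcnj1 at 556, 494 and 988 against 1523, 2052 and 3122 (-1.72 ± 0.35). Umod, uromodulin, the defining secreted protein of the same segment, stood at 22166, 15730 and 24547 against 22208, 25257 and 25851 (-0.25 ± 0.18, adjusted p = 0.301) and was not called. In the distal convoluted tubule and calcium handling list 10 of 15 genes fell (7 without WT UUO 2). Slc12a3, the thiazide-sensitive transporter, stood at 4679, 1851 and 3867 against 9020, 8866 and 7179 (-1.37 ± 0.32, adjusted p = 0.00493). Calb1, the calcium-binding protein calbindin, stood at 1886, 416 and 1196 against 7681, 7234 and 13368 (-3.21 ± 0.50). Egf, epidermal growth factor, stood at 2291, 405 and 4225 against 14845, 17638 and 17270 (-3.39 ± 0.59, and -2.41 without WT UUO 2), and Kl, the anti-ageing hormone klotho, at 2391, 982 and 2661 against 7330, 7757 and 7851 (-2.05 ± 0.31). All 4 genes were lowest on WT UUO 2, and every obstructed array lay below every sham array.

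**Figure D4:**
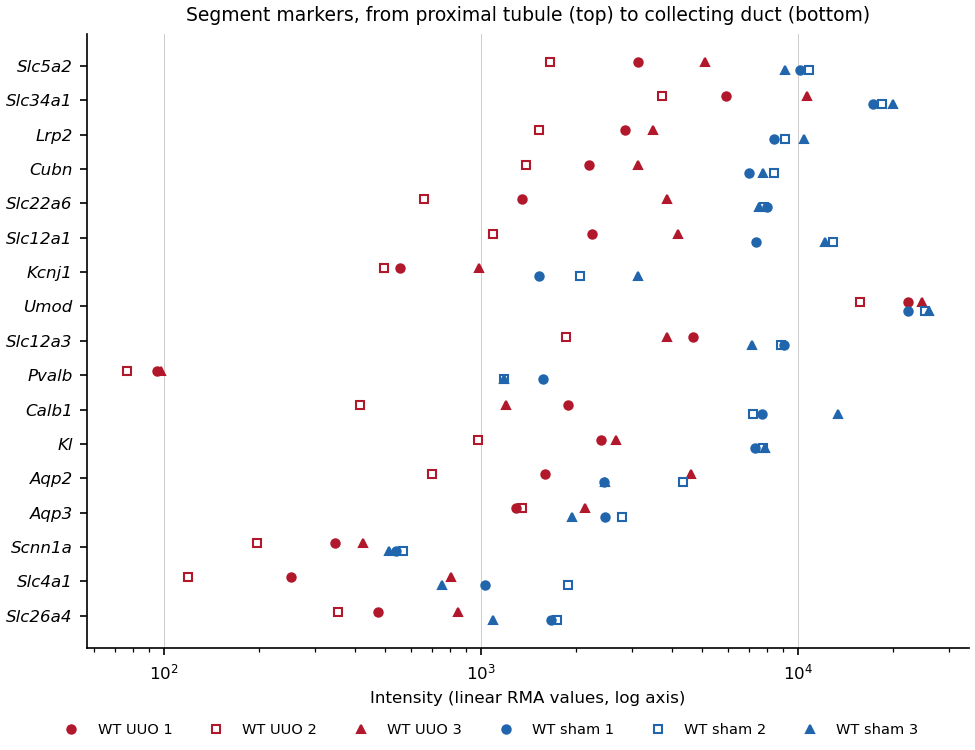
Intensity (log axis) of 17 segment markers on each WT array, from the proximal tubule at the top to the collecting duct at the bottom, with UUO arrays in red and sham arrays in blue. Proximal and distal convoluted tubule genes separate fully, while Umod, Aqp2, Aqp3 and Slc4a1 have overlapping groups.

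Principal cells of the collecting duct had few calls. Of 15 principal cell genes 3 fell and none rose, and without WT UUO 2 the calls were 1 lower, Kcnj1, and 1 higher. Aqp2, the vasopressin-regulated water channel, stood at 1590, 699.9 and 4607 against 2447, 4353 and 2458 (-0.78 ± 0.52, adjusted p = 0.266), with WT UUO 3 above all sham arrays and both other obstructed arrays below them. Scnn1a, a subunit of the epithelial sodium channel, changed by -0.81 ± 0.29 and lost its call without WT UUO 2 (adjusted p = 0.237). Among 17 intercalated cell genes 9 fell (5 without WT UUO 2). Slc26a4, the chloride-bicarbonate exchanger pendrin, stood at 472, 353 and 849.5 against 1666, 1733 and 1088 (-1.49 ± 0.29, adjusted p = 0.00121), and the carbonic anhydrase Car4, which the proximal tubule also expresses, fell by 1.63 ± 0.35. Slc4a1, the anion exchanger of acid-secreting cells and of red cells, stood at 253, 119 and 807 against 1027, 1879 and 754 and lost its call without WT UUO 2 (adjusted p = 0.0953).

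In the renin-angiotensin and kallikrein list 5 of 11 genes fell (4 without WT UUO 2), and 4 of the 11 were dim in both groups. Klk1, tissue kallikrein of the connecting tubule, stood at 11208, 5875 and 15526 against 30582, 28541 and 32297 (-1.60 ± 0.34, adjusted p = 0.00252), and Ace, the angiotensin-converting enzyme, at 308, 291 and 498 against 753, 775 and 588 (-0.98 ± 0.21). Of 19 prostaglandin and leukotriene genes 8 rose and 1 fell (6 and 1 without WT UUO 2). Alox5ap, which presents arachidonate to 5-lipoxygenase in leukocytes, stood at 1648, 2883 and 1444 against 318, 287 and 237 (2.77 ± 0.25, adjusted p = 1.65e-06). Ptgis, prostacyclin synthase, rose by 1.68 ± 0.33, and Ptger4, a receptor for prostaglandin E2, by 1.66 ± 0.24. Ptger3, the receptor of the same ligand in the thick ascending limb, fell by 0.95 ± 0.24.

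Glomerular and vascular genes moved in both directions. Of 15 podocyte genes 4 rose and 3 fell (2 and 2 without WT UUO 2). The slit diaphragm gene Nphs1 stood at 251, 150.2 and 221 against 297, 324 and 253 (-0.52 ± 0.21, adjusted p = 0.075) and was not called. Synpo, an actin-linked protein, stood at 1448, 1681 and 1025 against 496, 556 and 407 (1.49 ± 0.21, adjusted p = 8.33e-05), and Tcf21, a factor of podocytes and stromal cells, at 3007, 2879 and 3413 against 1491, 1424 and 1226 (1.17 ± 0.22). The other Synpo probe set, at a much lower level, gave -0.27 and was not called. The adult basement membrane collagens Col4a3 (-1.48 ± 0.40, adjusted p = 0.0604 without WT UUO 2) and Col4a4 (-1.40 ± 0.33) had lower values. Of 32 endothelial genes 12 rose and 4 fell (10 and 2 without WT UUO 2). The other 16 were not called, and the list median was 0.45 (0.33 without WT UUO 2). Among pan-endothelial markers, Pecam1 rose by 0.86 ± 0.19 and the cadherin Cdh5 by 1.17 ± 0.30. Icam1, a leukocyte adhesion molecule, stood at 2157, 1800 and 1391 against 431, 527 and 338 (2.05 ± 0.18, adjusted p = 1.41e-06), Vwf, von Willebrand factor, rose by 1.78 ± 0.40 and Aplnr, the apelin receptor, by 2.42 ± 0.35. Vegfa, the endothelial growth factor made by podocytes and tubules, stood at 705, 546 and 595 against 975, 858 and 1137 (-0.68 ± 0.16, adjusted p = 0.00505).

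Collagens rose broadly. Of 25 collagen chains 17 rose and 3 fell (17 and 1 without WT UUO 2). Col1a1, a chain of type I collagen, stood at 6035, 12625 and 4747 against 216, 218 and 164 (5.17 ± 0.38, adjusted p = 2.53e-07). Col3a1, of type III collagen, stood at 22017, 33194 and 16640 against 1027, 1254 and 1218 (4.31 ± 0.22, adjusted p = 1.45e-08). Col5a1, which nucleates type I fibrils, stood at 1751, 6440 and 1456 against 197, 216 and 145 (3.79 ± 0.51). All were highest on WT UUO 2, and each obstructed array exceeded each sham array. The 3 chains that had fallen in the fit over all arrays were Col4a3, Col4a4 and, chosen after its value was seen, Col9a1 (-0.46 ± 0.15, adjusted p = 0.076 without WT UUO 2), of which Col4a4 kept its call.

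The machinery that folds and crosslinks collagen rose as well. Of 19 such genes 15 rose and none fell (11 without WT UUO 2). Lox, lysyl oxidase, stood at 1068, 4342 and 497 against 109, 107 and 101 (3.64 ± 0.69, and 2.78 without WT UUO 2), Loxl1 at 2737, 3729 and 2327 against 629, 535 and 352 (2.55 ± 0.26), and the collagen chaperone Serpinh1 at 6609, 11665 and 5553 against 1606, 1723 and 1542 (2.22 ± 0.24, adjusted p = 8.83e-06). The Lox value on WT UUO 2 was over 4-fold that on WT UUO 1, while the obstructed arrays were within 2-fold of each other for Loxl1. Of 39 matrix glycoproteins and proteoglycans 31 rose and 1 fell (27 and 1 without WT UUO 2; medians 1.94 and 1.48). Thbs2, a thrombospondin, rose by 4.44 ± 0.49 from a dim level, Postn, the fibroblast product periostin, by 4.17 ± 0.97 (3.37 without WT UUO 2), and the proteoglycan Lum by 4.11 ± 0.86. Lama3, a laminin chain of epithelial basement membrane, was the exception at 279, 295 and 224 against 361, 344 and 439 (-0.52 ± 0.13, adjusted p = 0.00595).

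Among matrix proteases 13 of 24 rose and 1 fell (11 and 0 without WT UUO 2). Mmp2, gelatinase A, stood at 2117, 4212 and 1457 against 185, 187 and 118 (3.88 ± 0.37, adjusted p = 2.45e-06), and its membrane activator Mmp14 at 3387, 8614 and 2137 against 371, 409 and 273 (3.52 ± 0.40). Mmp9 was high on WT UUO 2 alone, with 114, 1090 and 104 against 91.7, 79.0 and 89.8, and was not called (adjusted p = 0.202). Of 20 protease inhibitors and plasminogen system genes 12 rose and 2 fell in each fit, 11 rises and 1 fall being shared. Of the metalloproteinase inhibitors, Timp1 is given above and Timp2 rose by 1.82 ± 0.16. Timp3, the matrix-bound member, stood at 5274, 5056 and 4260 against 6198, 7263 and 9040 (-0.61 ± 0.21). This brightest probe set lost its call without WT UUO 2 (adjusted p = 0.0702). The other Timp3 probe sets gave larger falls over all arrays, -0.72, -0.84 and -1.34, and all were called. Timp4 was dim in both groups (-0.19 ± 0.13, adjusted p = 0.302). Serpinf2, alpha-2-antiplasmin, which the proximal tubule makes, stood at 1559, 1806 and 3761 against 6819, 7004 and 5386 (-1.53 ± 0.29, adjusted p = 0.00106), opposite to the serpins that rose.

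Contractile genes of pericytes and myofibroblasts rose in 22 of 27 cases and fell in none (21 without WT UUO 2; median 1.90). Actg2, smooth muscle gamma actin, stood at 527, 5989 and 640.3 against 65.9, 98.6 and 49.3 (4.21 ± 0.86, and 3.09 without WT UUO 2). Tagln, an actin-bundling protein of smooth muscle, stood at 5338, 12842 and 6964 against 1203, 1188 and 944 (2.82 ± 0.26, adjusted p = 1.96e-06). Thy1, a surface protein of fibroblasts, stood at 909, 2453 and 702 against 103, 73.2 and 80.0 (3.78 ± 0.36). Serum response factor, which drives many such genes, binds the CArG box. Of 18 RefSeq promoters (GRCm38.p6, 250 bases before to 50 after the start) of called members, 3 held a CArG box on either strand (16.7%), against 13.6% over all measured members and 1.63% of 32851 promoters. Cnn2, calponin 2, was the called member with the largest change (2.25) whose promoter held it, and that promoter is shown with the CArG box in capitals, at chr10:79988350-79988649 on the + strand.
Cnn2 promoter: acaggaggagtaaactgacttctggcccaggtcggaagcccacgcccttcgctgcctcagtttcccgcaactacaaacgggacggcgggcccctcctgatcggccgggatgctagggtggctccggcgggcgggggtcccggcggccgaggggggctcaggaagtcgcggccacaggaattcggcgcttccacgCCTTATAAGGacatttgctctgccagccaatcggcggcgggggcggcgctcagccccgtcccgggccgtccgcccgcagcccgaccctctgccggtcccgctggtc

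Signals to fibroblasts were mixed in direction. Of 36 genes of TGF-beta, activin and BMP signalling 15 rose and 2 fell (14 and 1 without WT UUO 2). Tgfb3, a ligand, stood at 433, 1034 and 347 against 65.6, 95.1 and 97.8 (2.66 ± 0.41, adjusted p = 0.000214), and Ltbp2, a latent TGF-beta binding family protein, at 435, 1801 and 261 against 83.3, 52.0 and 56.5 (3.24 ± 0.58). Tgfbi, a TGF-beta-induced matrix protein, rose by 2.66 ± 0.35, and Ccn1, a stretch-induced matricellular protein, by 2.40 ± 0.38. Bmp7, the kidney-protective ligand made by tubules, stood at 258, 166 and 351 against 661, 677 and 471 (-1.27 ± 0.28, adjusted p = 0.0031). Of 39 growth factor genes and receptors 11 rose and 10 fell (9 and 8 without WT UUO 2). Osmr, the oncostatin M receptor, stood at 1436, 1971 and 863 against 232, 323 and 210.2 (2.43 ± 0.30, adjusted p = 2.88e-05), and Csf1, the macrophage growth factor, at 922, 1310 and 779 against 258, 362 and 277 (1.73 ± 0.21). The other Csf1 probe sets gave 0.89 and 0.83, both called, and -0.13, not called. The insulin-like growth factor binding proteins went apart, with Igfbp6 at 2.59 ± 0.51 and Igfbp1 at -1.51 ± 0.29.

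Macrophage and monocyte genes rose almost throughout. Of 37 markers 33 rose and none fell (29 without WT UUO 2), with a median of 2.67. Lyz2, lysozyme of myeloid cells, stood at 13843, 22149 and 9298 against 1084, 921 and 873 (3.89 ± 0.24, adjusted p = 7.47e-08). The defining markers Adgre1 (F4/80) and Cd68 rose by 3.15 ± 0.25 and 3.19 ± 0.35, and Csf1r, the CSF1 receptor, by 1.29 ± 0.18. Arg1, the cytosolic arginase of liver and of some macrophages, stood at 73.8, 2692 and 74.3 against 24.5, 21.9 and 24.2, so that its call (3.38 ± 1.22, adjusted p = 0.0468) rested on WT UUO 2 (adjusted p = 0.251 without it). Of 21 lysosomal and phagosome genes 14 rose and 1 fell (12 and 0 without WT UUO 2), led by the cathepsins Ctss (8149, 10413 and 5172 against 804, 852 and 834, 3.20 ± 0.23) and Ctsk (3.04 ± 0.33). Antigen presentation changed little with that array: the same 18 of 20 genes rose in both fits, with medians of 1.38 and 1.37. H2-Eb1, a class II chain, stood at 12535, 11052 and 10495 against 2575, 2816 and 1874 (2.25 ± 0.17, adjusted p = 4.57e-07).

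Neutrophil and lymphocyte lists gave fewer calls than the macrophage list, and many members were dim. Their shares of called members over all arrays were no lower than the 32.6% of all genes. Of 18 neutrophil genes 5 rose and 2 fell (3 and 1 without WT UUO 2), and 6 were dim in both groups. S100a8, a calprotectin subunit, stood at 192, 2126 and 123 against 40.9, 43.9 and 44.2 (3.10 ± 0.87), with WT UUO 2 more than 10-fold above the other obstructed arrays. Its partner S100a9 stood at 196, 1671 and 102 against 65.3, 52.7 and 57.3 (2.47 ± 0.83). Without WT UUO 2 neither was called (adjusted p = 0.069 and 0.188). Lcn2, which injured tubules also make, was the largest rise of the list. Fpr2 rose by 1.61 ± 0.37 from a dim sham level. The 2 members that fell over all arrays were Ctsg (-0.49 ± 0.12), dim in both groups, and Elane (-0.50 ± 0.18). Elane lost its call without WT UUO 2 (adjusted p = 0.171), and Ctsg kept it with an adjusted p of 0.04998. Of 24 lymphocyte and NK genes 6 rose and 2 fell (6 and 0 without WT UUO 2), and 8 were dim in both groups. Klrd1, the CD94 receptor chain, stood at 195, 196 and 71.0 against 57.2, 50.3 and 35.1 (1.58 ± 0.36), Gzma at 141, 181 and 108 against 61.2, 51.9 and 71.7 (1.20 ± 0.21) and Cd79b at 151, 138 and 182 against 77.0, 55.3 and 68.9 (1.23 ± 0.20). Cd79a went the other way, at dim levels of 44.3, 49.7 and 55.2 against 76.1, 73.5 and 69.0 (-0.56 ± 0.17, adjusted p = 0.0227). It lost its call without WT UUO 2 (adjusted p = 0.0604).

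Chemokines direct leukocytes into tissue. Of 39 chemokine ligands and receptors 22 rose and 1 fell (19 and 1 without WT UUO 2). Cxcl1, a neutrophil attractant made by epithelium, stood at 1110, 1894 and 630 against dim levels of 62.0, 47.8 and 55 (4.33 ± 0.30, adjusted p = 1.76e-07). Ccl8, a monocyte attractant, stood at 1362, 4981 and 953 against 95.1, 81.7 and 83.0 (4.43 ± 0.56), and Ccl9 at 1983, 4355 and 1409 against 182, 146 and 113 (3.99 ± 0.38). The exception was Ccl25, a thymic and gut chemokine, at 103, 95.6 and 114 against 192, 179 and 205 (-0.89 ± 0.12, adjusted p = 5.74e-05). Of 46 cytokines and receptors 23 rose and 2 fell (21 and 1 without WT UUO 2). Socs3, the feedback inhibitor of IL-6 family signalling, stood at 3608, 3773 and 2605 against 172, 335 and 95.9 (4.22 ± 0.32, adjusted p = 4.42e-07). Tnfrsf12a, the receptor of TWEAK, stood at 3403, 3874 and 2777 against 898, 797 and 552 (2.18 ± 0.21), and the alarmin Il33 at 1350, 3505 and 776 against 283, 294 and 279 (2.43 ± 0.42). Tnf itself stood at 127, 130.4 and 133 against 122, 129 and 140 (0.00 ± 0.12, adjusted p = 0.999).

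The NF-kappaB list gave 17 rises of 28 genes and no fall, and the same 17 were called without WT UUO 2. Relb, a subunit of the non-canonical pathway, stood at 724, 622 and 547 against 149, 146 and 114 (2.21 ± 0.20, adjusted p = 2.12e-06). Tlr2, a receptor for damage and microbial products, stood at 634, 640.2 and 451 against 118, 140 and 102 (2.25 ± 0.19, adjusted p = 8.44e-07). Nfkbiz, an inducible nuclear IkappaB protein, stood at 793, 752 and 234 against 98.4, 61.3 and 119 (2.54 ± 0.50). Of 17 promoters of called members 3 held the kappaB motif on either strand (17.6%), against 12.1% over all measured members and 1.47% of all RefSeq promoters. The 3 promoters belong to 2 genes, Nfkbia and, through overlapping windows, Nfkb2, which was singled out after its match was seen. Nfkbia, IkappaB-alpha, the inhibitor that NF-kappaB itself induces, was the called member with the largest change (1.37) whose promoter held it. The promoter is shown, with the match in capitals in the orientation of the opposite strand, at chr12:55492598-55492897 on the - strand.
Nfkbia promoter: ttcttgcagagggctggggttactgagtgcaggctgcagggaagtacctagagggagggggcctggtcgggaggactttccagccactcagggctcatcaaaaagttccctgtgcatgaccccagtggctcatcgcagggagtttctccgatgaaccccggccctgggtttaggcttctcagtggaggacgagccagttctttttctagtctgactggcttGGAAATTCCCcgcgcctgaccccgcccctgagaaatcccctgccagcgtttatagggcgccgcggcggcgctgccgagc

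Interferon-induced genes rose in 22 of 30 cases and fell in none (18 without WT UUO 2). Ubd, a ubiquitin-like modifier induced by interferon gamma and TNF, stood at 878, 991 and 418 against dim levels of 58.5, 41.7 and 44.3 (3.91 ± 0.28, adjusted p = 2.19e-07). Gbp2, a guanylate-binding protein, stood at 3232, 3362 and 2299 against 471, 450.2 and 418 (2.71 ± 0.22, adjusted p = 8.19e-07). Oasl2, of the oligoadenylate synthetase family, stood at 442, 594 and 481 against 116, 169.6 and 150.3 (1.81 ± 0.20). For each the obstructed arrays were within 3-fold of each other. The interferon response motif occurred on either strand in 10 of 21 promoters of called members (47.6%). The share was 50% over all measured members, no lower than among the called ones, and 3.44% of all RefSeq promoters. Gbp2 had the largest change of the members whose promoter held it, and the promoter at chr3:142620413-142620712 on the + strand is shown, with the match in capitals in the orientation of the opposite strand.
Gbp2 promoter: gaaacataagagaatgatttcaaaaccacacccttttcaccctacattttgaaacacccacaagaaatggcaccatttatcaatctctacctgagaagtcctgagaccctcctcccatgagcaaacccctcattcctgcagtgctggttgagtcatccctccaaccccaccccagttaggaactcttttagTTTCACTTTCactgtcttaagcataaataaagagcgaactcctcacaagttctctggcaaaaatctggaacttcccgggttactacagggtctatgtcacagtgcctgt

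Many plasma proteins come mainly from liver, so hepatocyte transcripts on WT UUO 2 stand beside the next values. Of 27 complement and coagulation genes 18 rose and 3 fell (18 and 2 without WT UUO 2). C1qb, a chain of C1q made by macrophages, stood at 6986, 9446 and 6145 against 773, 861 and 524 (3.40 ± 0.22, adjusted p = 8.89e-08). F13a1, the transglutaminase of macrophages and platelets, stood at 420.2, 2087 and 293 against 62.5, 46.9 and 51.4 (3.58 ± 0.77). Proc, the anticoagulant protein C, fell, with 1569, 1482 and 2870 against 4682, 4611 and 3559 (-1.18 ± 0.23). Of 19 acute phase genes 12 rose and none fell in each fit, 11 being shared, with medians of 2.97 and, without WT UUO 2, 2.11. Their mean change from the sham mean was 1.99, 5.35 and 1.87 on WT UUO 1 to 3. Fgb, the fibrinogen beta chain, stood at 545, 10054 and 746 against 83.2, 166 and 84.6. Its change was 3.93 ± 0.75 over all arrays and 2.60 without WT UUO 2 (adjusted p = 0.000204). Hp, haptoglobin, stood at 5068, 18687 and 1727 against 77.6, 88.5 and 109.6 (5.91 ± 0.83, and 5.02 without WT UUO 2). Both genes were higher on WT UUO 1 and WT UUO 3 than on every sham array. Fgb also belongs to the list of 28 hepatocyte markers, in which 6 were called higher and 5 lower without WT UUO 2. Fgg, the fibrinogen gamma chain, was among the 6, at 2552, 11782 and 4746 against 522, 2482 and 404, and Ttr, transthyretin, stood at 1337, 15660 and 7211 against 9615, 8320 and 10268. The part of hepatocyte transcripts in these rises was not tested.

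Cell division genes were listed by phase. Of 37 genes of DNA replication and the G1/S step 24 rose and none fell (15 without WT UUO 2). Uhrf1, which maintains DNA methylation at replication, stood at 456, 433 and 334 against 73.4, 72.3 and 73.4 (2.47 ± 0.17, adjusted p = 1.59e-07). Mcm5, of the replicative helicase, rose by 1.91 ± 0.25, and Rrm2, of ribonucleotide reductase, by 1.71 ± 0.23. Of 45 mitosis genes 28 rose and 1 fell (23 and 1 without WT UUO 2), with a median of 1.21, and 8 were dim in both groups. Birc5, survivin, of the chromosomal passenger complex, stood at 308, 661 and 253 against dim levels of 40.6, 38.8 and 44.8 (3.17 ± 0.34, adjusted p = 7.43e-06). Cdk1, the mitotic kinase, stood at 552, 1033 and 498 against 125, 109 and 154 (2.36 ± 0.26, adjusted p = 1.17e-05), and Ccnb2, its partner cyclin B2, at 331, 606 and 326 against 87.0, 66.4 and 61.8 (2.51 ± 0.28). WT UUO 2 was the highest for each and the other obstructed arrays were close to each other. Foxm1, the factor that activates many of them, was the member that fell, on its brightest probe set (-0.66 ± 0.17). Its other probe sets gave -0.36, 0.28 and, at a dim level, -0.02, and none of these was called.

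Promoters of mitosis genes share a CHR element, TTTGAA, and CCAAT boxes, bound by the DREAM complex and by NF-Y. TTTGAA occurred on either strand in 20 of 24 promoters of called members (83.3%), against 17.9% of all RefSeq promoters, and CCAAT in 18 of 24 (75%), against 37.4%. Over the promoters of all measured members the shares were 76.9% and 74.4%, close to those of the called members. The promoter of Ccnb2, at chr9:70421505-70421804 on the - strand, holds 3 CCAAT and 2 TTTGAA matches, in capitals.
Ccnb2 promoter: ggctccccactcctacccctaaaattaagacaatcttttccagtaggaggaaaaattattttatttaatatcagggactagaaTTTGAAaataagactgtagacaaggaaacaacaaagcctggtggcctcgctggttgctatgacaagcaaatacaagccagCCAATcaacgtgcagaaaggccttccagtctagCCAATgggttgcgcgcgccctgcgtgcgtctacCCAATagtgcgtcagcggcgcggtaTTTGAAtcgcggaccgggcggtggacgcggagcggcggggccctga

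The same search found the AP-1 motif TGANTCA in 0 of 19 promoters of called stress factor genes, against 7.81% of all promoters. It found the HNF1 motif in 0 of 45 promoters of proximal tubule carriers that fell, against 0.399%. With so few promoters at these shares, a count of 0 cannot show a lack of either motif. These matches describe letters in a window of 300 bases and do not show binding.

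Of 28 cell cycle inhibitors and p53 targets 12 rose and none fell (9 without WT UUO 2). Cdkn1a, the inhibitor p21, stood at 1084, 1813 and 953 against 292, 339 and 259 (2.06 ± 0.24, adjusted p = 1.90e-05), and Cdkn2b, p15, at 291, 398 and 297 against 106, 149.9 and 79.0 (1.59 ± 0.29). Of 24 BCL2 family and caspase genes 8 rose and 2 fell (9 and 2 without WT UUO 2, of which 8 and 2 were shared). Ripk3, the kinase of necroptosis, stood at 195, 494 and 208 against 97.8, 81.9 and 97.0 (1.56 ± 0.36, adjusted p = 0.0044), and Mcl1, an inhibitor of apoptosis, rose by 0.95 ± 0.21 on its brightest probe set. The other Mcl1 probe sets gave 0.61, 0.61, 0.73, 0.72 and 0.77, and only those at 0.73 and 0.77 were called. Bid, a death agonist, stood at 1091, 870 and 1323 against 2173, 1731 and 1969 (-0.85 ± 0.16, adjusted p = 0.000937).

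**Figure D5:**
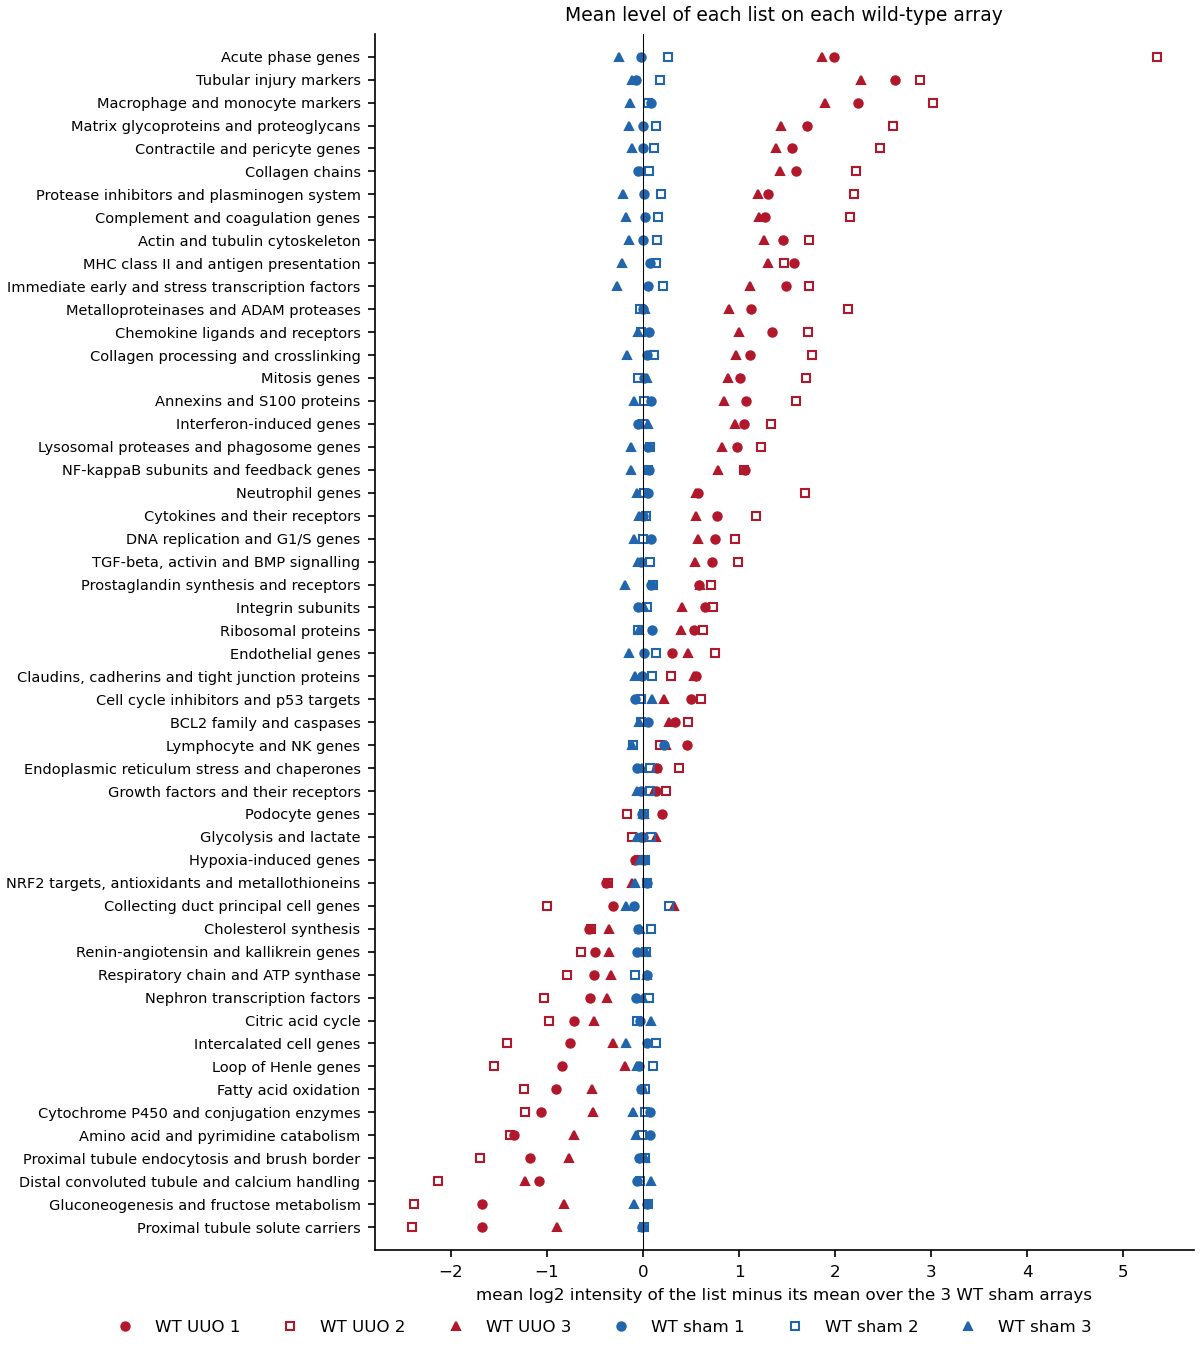
Mean log2 intensity of each of 52 kidney and immune gene lists on each WT array, relative to the mean of the 3 sham arrays, with UUO arrays in red and sham arrays in blue. WT UUO 2 had the largest mean change of the obstructed arrays in 43 lists and WT UUO 3 the smallest in 44.

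Markers of tissues near the kidney were counted beside these results. Urothelial markers summed to 5720 to 17493 on the UUO arrays and to 1557 to 2054 on the sham arrays, and 6 of 12 rose and 1 fell (4 and 1 without WT UUO 2). Sprr1a, a cornified envelope gene, stood at 3133, 6838 and 2254 against 185, 283 and 185 (4.10 ± 0.43), while the uroplakin Upk3a stood at 263, 779 and 219 against 171, 172 and 160.4 and was not called (adjusted p = 0.0833). Adipocyte markers summed to 15029 to 39815 on the UUO arrays and to 21494 to 37368 on the sham arrays. Of 11 markers 4 rose and 2 fell (2 and 2 without WT UUO 2). Adipoq, adiponectin, rose, with 2940, 6388 and 933 against 16.1, 52.0 and 156 (5.68 ± 1.21), and Lpl, lipoprotein lipase, which tubules also make, fell by 1.57 ± 0.35. Adrenal cortex and skeletal muscle markers gave no rise. Red cell markers fell in 3 of 6 cases (1 without WT UUO 2), with sums of 548 to 683 against 904 to 1147. Alas2, of haem synthesis in red cell precursors, stood at 129, 157 and 215 against 548, 594 and 352 (-1.57 ± 0.28). Of 9 pancreas markers 1, Cela1, fell on its brightest probe set (-1.55 ± 0.27). Cela3b was not called on its brightest probe set (adjusted p = 0.12), but its other probe sets gave -0.62, -0.48 and -0.64, all called. Other probe sets of Prss2 gave -0.51, -0.49 and -0.32, all called. The last value of each gene came from a dim level. The part of these tissues in the kidney results was not tested.

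The response was set beside those of the TIMP2-/- and TIMP3-/- kidneys, each against its own sham group. TIMP2-/- kidneys had 4616 called genes (37.2%) and TIMP3-/- kidneys 7981 (64.4%). With TIMP2-/- the WT response shared 1342 rises, 65.2% of the WT rises and 69.2% of the TIMP2-/- ones, and 1351 falls, 68.3% and 50.5%. With TIMP3-/- it shared 1640 rises (79.7% and 51.7%) and 1720 falls (86.9% and 35.8%). Calls of opposite direction numbered 0 and 3. The difference between responses, tested as an interaction in limma, was called for 0 genes (0%) with either knockout. At an unadjusted p under 0.05 it was met by 1195 genes (9.64%) for TIMP2-/- and 3330 (26.9%) for TIMP3-/-, and the smallest adjusted p were 0.191 and 0.167.

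Single arrays and array weights change that count. With weights fitted to each array, limma called 974 genes for TIMP2-/- and 4191 for TIMP3-/-. The weights of arrays 1 to 3 were 5.71, 0.38 and 0.52 in WT UUO. They were 3.80, 1.86 and 0.35 in TIMP2-/- UUO and 1.60, 0.23 and 0.34 in TIMP3-/- UUO. The weighted UUO mean of each genotype thus rested mostly on array 1. Leaving out 1 array in turn gave between 0 and 2 calls for TIMP2-/- and between 0 and 25 for TIMP3-/-, the 25 without TIMP3-/- UUO 3. Gnmt, Hpd and Ttr were called against TIMP3-/- without WT UUO 1, with differences of 3.74, 4.87 and 4.12. Without WT UUO 2, Egf was the only gene called against TIMP3-/-, with a difference of 3.39 (adjusted p = 0.0314). Over all arrays its change was -3.39 in WT, -3.09 in TIMP2-/- and -5.80 in TIMP3-/-. Timp2, the gene named in the TIMP2-/- genotype, had the smallest p against TIMP2-/- (change 1.82 in WT, 0.36 in TIMP2-/-, adjusted p = 0.191), and it was called without WT UUO 3 or without WT sham 2. Slc22a30 was also called against TIMP2-/- without WT UUO 3, with a difference of -2.16. Slc22a7 changed by -3.59 in WT, -2.67 in TIMP2-/- and -6.54 in TIMP3-/-, and Lcn2 by 5.99, 5.68 and 4.97. Neither gene's difference between genotypes was called.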

How the data were processed

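Total RNA of 18 kidneys, 3 per group, was measured on Affymetrix Mouse430A_2 arrays. The deposited values are linear intensities made with RMA, per the submitters' processing notes (no version or linear-scale step is given in the sources used here). RMA equalises arrays (WT medians 210 to 240.05), so a shift of all genes cannot be seen. Depth has no meaning here, and the number of arrays limits the precision.

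The log2 intensities of 22626 probe sets, after 64 controls were left out, were fitted in limma 3.58.1 (R 4.3.3) with 1 mean per group over all 18 arrays. Contrasts were tested with empirical Bayes and Benjamini-Hochberg adjustment over all probe sets. The platform annotation gave 20380 probe sets 1 symbol, 691 several and 1555 none; the brightest probe set stood for each of 12393 genes, of which 4956 had several. The method was tested on simulated data.

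Named genes were the 12 largest rises and 12 largest falls without overlap that were also called without WT UUO 2, up to 4 called members per list in its main direction and up to 2 in the other, Timp1 to Timp4, Mmp9 and Tnf, up to 4 members of each list of other tissues, and the 6 smallest adjusted p of each interaction. Fixed cell type markers and the genes whose promoters are shown are also named. The comparison, lists and rules were chosen with earlier results of these data known. Alternatives were each array left out, the 3 arrays that stand apart left out, a replicate block, other probe set choices, normalizations and log scales, array weights, another variance model and the WT arrays alone. Promoters are from RefSeq, GRCm38.p6.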

Additional observations from a re-analysis of the deposited data

How the results depend on the processing

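No alternative turned a call of the 278 named genes except for 3: Epb42 went to 0.22 with the mean of its probe sets, and Rpl35 and Tmsb10 went to -0.51 and -0.29 with suffixed probe sets left out. The 4038 called genes became 2646 without WT UUO 2, and leaving out any 1 WT array gave 2646 to 4297, with 1598 to 2069 higher and 1030 to 2228 lower. Of the named genes 239 of 278 kept direction and side of the threshold without WT UUO 2. Without the 3 arrays that stand apart (WT UUO 2, WT sham 3 and TIMP3-/- UUO 2) the calls were 2327, with 1365 higher and 962 lower. Array weights, the highest of them on WT UUO 1 (5.71), gave 6715, with 3804 lower, and the 6 WT arrays alone gave 1296 lower. Other settings gave 3209 (10529 genes, suffixed probe sets left out) to 4607 (median centring). For the TIMP2-/- interaction, leaving out 1 array gave 0 to 2 calls, with 0 to 1 higher and 0 to 1 lower, and array weights 974, with 377 higher and 597 lower. For the TIMP3-/- interaction these were 0 to 25, with 0 to 20 higher and 0 to 5 lower, and 4191, with 2488 and 1703. The cause of these differences was not tested. Replicate numbers did not pair the WT arrays (same-number correlations of deviations 0.03, -0.12 and -0.32); the replicate block gave 4344 calls, 2068 higher and 2276 lower, and 0 for both interactions. Low intensities limit what can be seen, since 2066 genes were dim in both groups.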

Other observations

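Stress and metabolic lists had calls in both directions. Of 30 NRF2 targets, antioxidants and metallothioneins 2 rose and 11 fell, with a median log2 fold change of -0.14 (1 and 9 without WT UUO 2). Of 31 endoplasmic reticulum stress genes and chaperones 5 rose and 3 fell, with a median of 0.15 (4 and 2). Of 18 hypoxia-induced genes 3 rose and 6 fell, with a median of -0.15 (2 and 4), and of 17 cholesterol synthesis genes 2 rose and 7 fell, with a median of -0.25 (1 and 5). These stand beside 16.6% of all genes higher and 16% lower in limma over all arrays, and 13% and 8.31% without WT UUO 2.

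Of 16 cytosolic ribosomal protein genes 13 rose and none fell, with a median of 0.51 (10 without WT UUO 2), and with each array centred on its median 9 rose. Of 28 hepatocyte markers 6 rose and 1 fell over all arrays, and without WT UUO 2 the calls were 6 higher and 5 lower. Saa1, an acute phase protein made by hepatocytes and singled out after its values were seen, stood at 47.0, 12924 and 77.5 on the obstructed arrays and at 34.8, 36.5 and 34.9 on the sham arrays. Its adjusted p was 0.0684 over all arrays and 0.0258 without WT UUO 2, where the change was 0.77.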
